A study of Mus musculus with 2 samples.

Results

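The genes described here serve fatty acid oxidation, ketone body metabolism, fatty acid synthesis and cholesterol synthesis. They were taken from a list of 41 symbols, matched to probes through the array's gene annotation, and 37 of them had a probe that was analysed, of 16390 named genes in all. By role, 24 listed genes (22 with a probe) belong to oxidation and ketogenesis, 6 (all with a probe) to fatty acid synthesis and 11 (9 with a probe) to cholesterol synthesis. Hadhb, Acsl3, Hmgcs1 and Fdps were not analysed here. Of the 37, 36 exceeded background in all 4 channels, and Ppard did so with double-positive RNA alone.

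Sorted epithelial cells of the mouse small intestine were compared on 2 two-colour arrays. All 3 populations came from mice that carried Atoh1-crePGR together with Lgr5-EGFP-IRES-creERT2 and a Rosa26-tdTomato reporter, in which RU486 was injected on 5 consecutive days and cells were taken 20 days after recombination. The Cre protein is expressed from Atoh1, a secretory lineage gene, and becomes active with RU486, so that tdTomato marks cells that had Atoh1-driven Cre then and their descendants. EGFP reports the stem cell gene Lgr5. Cells with EGFP but no tdTomato are called EGFP only, cells with both proteins double positive, and cells with tdTomato but no EGFP tdTomato only. A cell without tdTomato may also be one in which recombination did not take place. Cells of 4 mice were pooled before the sort, and each population is 1 biological replicate. The labels used here do not state the age of the mice. EGFP-only RNA was in the Cy5 channel of both arrays, against double-positive RNA in Cy3 on the first and tdTomato-only RNA in Cy3 on the second.

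Mitochondria burn fatty acids by taking them in as carnitine esters and shortening the chain in a cycle of dehydrogenation, hydration, a second dehydrogenation and thiolysis. The acetyl-CoA can enter the citric acid cycle or be turned into ketone bodies, and in the intestinal crypt both fatty acid oxidation, under the PPAR nuclear receptors, and ketone bodies have been tied to stem cell function. Synthesis runs the other way in the cytosol, from citrate to palmitate and its desaturated products, while sterols are built from acetyl-CoA by way of mevalonate and squalene. The transcription factors SREBP-1 and SREBP-2 drive both synthetic routes after transport and cleavage steps that sterols block.

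Each comparison below rests on 1 array, or on the difference of 2, so there is neither a replicate error nor a p-value, and sizes are described against fixed folds. Log2 ratios are after background correction and loess within the array, whereas spot medians are given as deposited. Among bright spots Cy3 was dimmer than Cy5 for most probes on both arrays, a trend over intensity that loess removes and median centring does not, so a gene can have a dimmer Cy3 spot and a log2 ratio above 0. Background was set at the mean plus 2 SD of the blank spots, and this limit lay between 74.1 and 85.4 scanner units in the 4 channels. From 67.0% to 77.1% of 23474 probes passed it, depending on the channel. The EGFP-only population was measured on both arrays. The SD of the log2 difference between its 2 measurements was 0.083 over 15640 probes, which describes technical spread alone. It is the spread of the Cy5 level, not of a difference of 2 log2 ratios, and no Cy3 measurement was repeated. A change of a spot that both channels share cancels in a ratio, so an EGFP-only difference need not carry over to it. For the 36 member probes the same difference ran from −0.61 (Acly) to 0.26 (Cpt2), with an SD of 0.15. RNA of many cells was measured together, so fewer cells of a type and less RNA per cell cannot be told apart. No dye swap was made, and a dye effect of a single probe cannot be told apart from a difference between populations in the first 2 comparisons.

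No member differed by 2-fold from the EGFP-only population in either sorted fraction. In double-positive cells 0 of 36 were at least 2-fold higher, where 5.1% of 11774 genes were, and 0 were at least 2-fold lower, where 0.34% of genes were. In tdTomato-only cells the counts were also 0 and 0, against 6.15% higher and 1.19% lower among 11381 genes. At a fold of 1.5, Acadl and Scd2 were higher and Idi1 lower in double-positive cells (10.7% and 4.12% of all genes). At that fold Acsl5 was higher and no member lower in tdTomato-only cells (12.5% and 6.66% of all genes). Other processing changed these counts. With median centring in place of loess 6 members were at least 2-fold lower in double-positive cells (6.29% of all genes) and 3 in tdTomato-only cells (7.47%). In the authors' deposited ratios Scd1 was at least 2-fold higher in both fractions (10.6% of all genes in each) and Idi1 at least 2-fold lower in double-positive cells (3.57%). With the blank mean subtracted the same genes passed that fold, Scd1 beside 9.96% and 10.8% of all genes and Idi1 beside 3.41%.

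**Figure D1:**
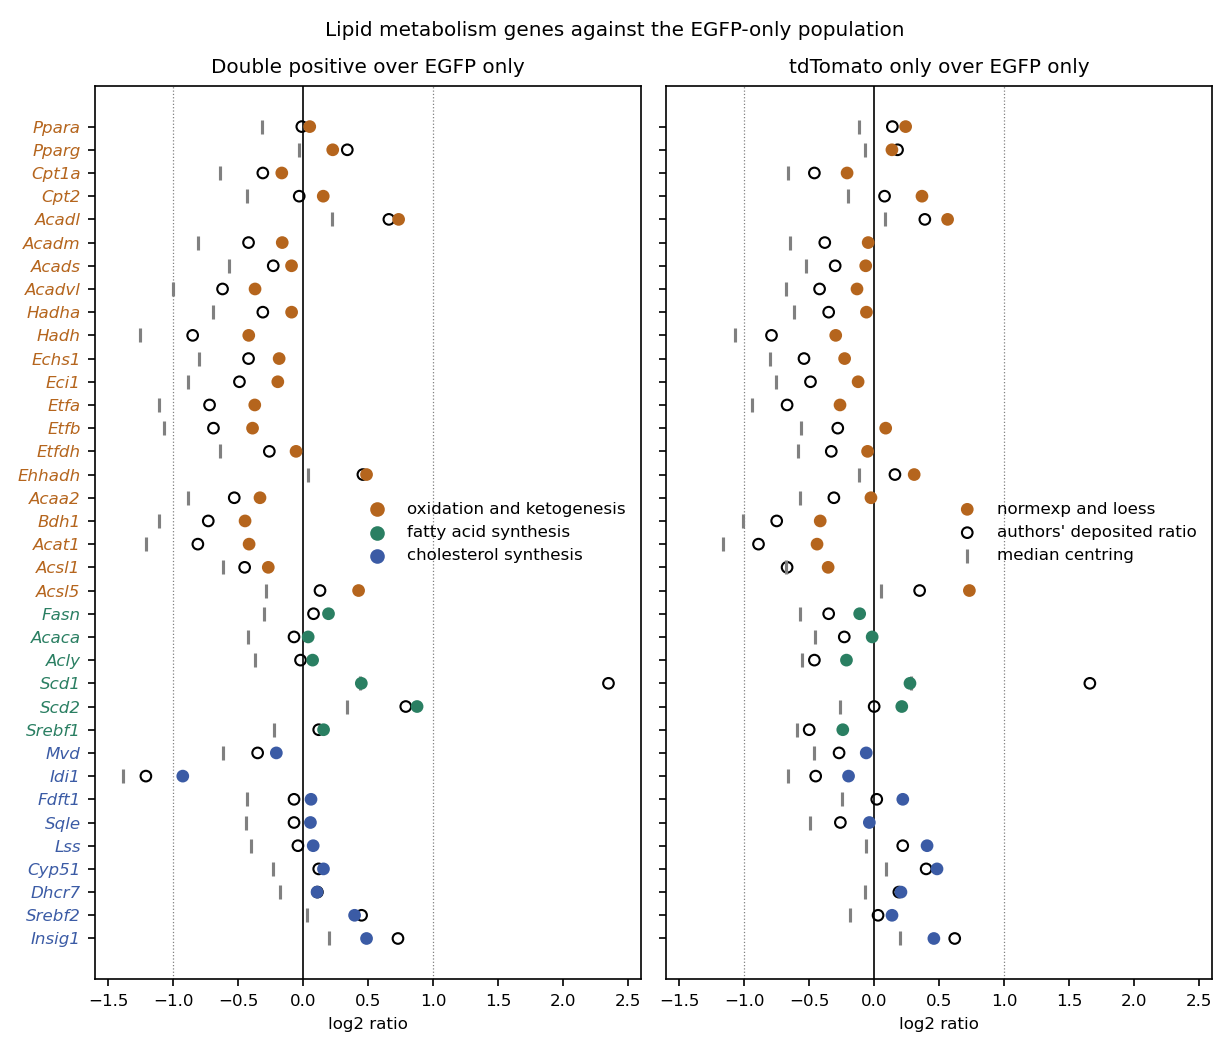
Log2 ratio of each of 36 lipid metabolism genes over the EGFP-only population (horizontal axis, no unit) in double-positive cells on the left and tdTomato-only cells on the right. Filled points are the values after normexp and loess, coloured by group, open circles the authors' deposited ratios, grey ticks median centring without loess, and dotted lines 2-fold; no filled point passes them, while Scd1 (2.35 and 1.66) does as an open circle.

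Most enzymes of the mitochondrial oxidation cycle lay slightly below the EGFP-only level in both fractions. In double-positive cells 15 of 21 measured oxidation and ketogenesis members had a log2 ratio below 0, where 51.1% of all genes did, and those 15 were below 0 in all 4 ways of processing. In tdTomato-only cells 14 of 21 were below 0 (51.8% of all genes), again in all 4 ways. The medians were −0.16 and −0.06, against −0.01 over all genes in each comparison. From the deposited values they were −0.42 and −0.35, and from median centring −0.70 and −0.62, with the median of all genes at −0.21 in both comparisons under that setting. Because these settings lower the group's values, a sign below 0 after loess could hardly turn, and the agreement of signs adds little. The measured members were also brighter than the median probe, and the shares over all genes were not matched for brightness. The part of spot brightness in these signs was not tested.

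The gate of the pathway is the carnitine shuttle. Cpt1a, the outer membrane transferase that commits a fatty acid to oxidation, had spot medians of 585 and 612 scanner units in the EGFP-only channels of the first and second array, 375 in double-positive and 399 in tdTomato-only cells, with log2 ratios of −0.16 and −0.21. Both fractions thus lay close together, slightly below EGFP only. Cpt2, its partner at the inner membrane, had spot medians of 1154 and 1357 in EGFP-only, 836 in double-positive and 1185 in tdTomato-only cells, with ratios of 0.15 and 0.37 that median centring turned to −0.43 and −0.20. Its EGFP-only measurements differed by 0.26 between arrays, more than the difference of 0.21 between the fractions.

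Acyl-CoA synthetases, which activate fatty acids for either use, went apart. Acsl1 was dim, with spot medians of 265 and 246 in EGFP-only, 180 in double-positive and 169 in tdTomato-only cells, and log2 ratios of −0.27 and −0.35. Acsl5, a form abundant in intestinal epithelium, had spot medians of 2346 and 2569 in EGFP-only, 1859 in double-positive and 2655 in tdTomato-only cells. It was 1.34-fold higher in double-positive and 1.66-fold higher in tdTomato-only cells, which made it the highest oxidation and ketogenesis member in the latter. Median centring put its double-positive ratio below 0, at −0.28.

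The acyl-CoA dehydrogenases open the cycle, each for its own chain length. Acadl, the long-chain form, stood apart from the others with spot medians of 581 and 583 in EGFP-only, 657 in double-positive and 624 in tdTomato-only cells. Its ratios of 0.73 and 0.57, or 1.66-fold and 1.48-fold higher, were above 0 in all 4 ways of processing. Acadm, the medium-chain form, had spot medians of 1961 and 1965 in EGFP-only, 1089 in double-positive and 1263 in tdTomato-only cells, with ratios of −0.16 and −0.05. Acads, the short-chain form, was similar, at −0.09 and −0.06. Acadvl, the very long-chain form, had −0.37 and −0.13. Its EGFP-only spot was dimmer on the second array, at 1320 against 1886 on the first.

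Of the enzymes that follow, Hadh was the lowest. This short-chain hydroxyacyl-CoA dehydrogenase had spot medians of 6359 and 6896 in EGFP-only, 2573 in double-positive and 3277 in tdTomato-only cells, and was 1.34-fold and 1.23-fold lower after loess (−0.42 and −0.30). Hadha, the alpha subunit of the trifunctional protein, was near the EGFP-only level at −0.09 and −0.06. The hydratase Echs1 had −0.18 and −0.23, and the isomerase Eci1, which prepares unsaturated chains, −0.19 and −0.12. Acaa2, the thiolase of the last step, had spot medians of 1099 and 1234 in EGFP-only, 587 in double-positive and 843 in tdTomato-only cells, with ratios of −0.33 and −0.02. Ehhadh, the peroxisomal bifunctional enzyme, was higher in both fractions, at 0.49 and 0.31, although median centring put the second value at −0.12.

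Electrons from the dehydrogenases pass through the electron transfer flavoprotein to the respiratory chain. Its alpha subunit gene Etfa had spot medians of 3645 and 3562 in EGFP-only, 1633 in double-positive and 1860 in tdTomato-only cells, with ratios of −0.37 and −0.26. Its beta subunit gene Etfb had 2636 and 2573 in EGFP-only, 1219 in double-positive and 1751 in tdTomato-only cells, with ratios of −0.39 and 0.09, the latter −0.28 in the deposited ratios. So the subunits lay together in double-positive cells and apart in tdTomato-only cells. Etfdh, which hands the electrons to ubiquinone, was near 0 in both (−0.05 and −0.05).

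Bdh1 and Acat1, the members that serve ketone body metabolism, were lower in the sorted fractions than in EGFP-only cells. Bdh1 converts acetoacetate to beta-hydroxybutyrate and back. Its spot medians were 2341 and 2112 in EGFP-only, 1059 in double-positive and 1061 in tdTomato-only cells, and its ratios were −0.45 and −0.42, or 1.36-fold and 1.33-fold lower. Acat1, the mitochondrial acetoacetyl-CoA thiolase, had spot medians of 5083 and 5124 in EGFP-only, 2120 in double-positive and 2290 in tdTomato-only cells, and was 1.33-fold and 1.36-fold lower. Oxct1, which starts the use of ketone bodies and was picked from the further oxidation list after its values were seen, had −0.24 and −0.22. Between the fractions Bdh1 had 0.03 and Acat1 −0.02, and both signs depended on the processing. In the deposited ratios Bdh1 was at −0.73 and −0.75 and Acat1 at −0.81 and −0.89, and median centring put both past 2-fold below in each fraction.

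The nuclear receptors above these enzymes were dim. Ppara, the main activator of oxidation genes, had spot medians of 263 and 247 in EGFP-only, 215 in double-positive and 238 in tdTomato-only cells, with ratios of 0.05 and 0.24 that median centring turned to −0.32 and −0.12. Pparg had 146 and 134 in EGFP-only, 148 in double-positive and 139 in tdTomato-only cells, with ratios of 0.23 and 0.14. Median centring turned these below 0 as well, to −0.03 and −0.07. Ppard, which is tied to fat-induced changes of intestinal stem cells, was not well above background in 3 of 4 channels (70.0 and 71.2 in EGFP-only and 84.6 in tdTomato-only cells). Its double-positive spot was 83.4, just above the limit of 82.2 in that channel, and no fold is given.

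Fatty acid synthesis members were at or above the EGFP-only level in double-positive cells and mostly below it in tdTomato-only cells. In the former all 6 had a ratio above 0 (48.9% of all genes), with a median of 0.18 that median centring turned to −0.26. The count was 4 with deposited values and 2 after median centring. In the latter 2 of 6 were above 0 (48.2% of all genes), with a median of −0.06, and −0.29 in the deposited ratios. Scd2, a stearoyl-CoA desaturase, had spot medians of 657 and 651 in EGFP-only, 803 in double-positive and 551 in tdTomato-only cells. It was 1.84-fold higher in double-positive cells (0.88, and 0.79 in the deposited ratios) and 1.16-fold higher in tdTomato-only cells (0.21, and −0.27 with median centring). Its close relative Scd1 was near the background limit, with spots of 75.5 and 77.4 in EGFP-only, 104 in double-positive and 101 in tdTomato-only cells. Scd1 had 0.45 and 0.28 with the offset of 50 used in background correction, but 2.08 and 1.28 with the blank mean subtracted and no offset, and 2.35 and 1.66 in the deposited ratios.

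Fasn, the synthase that builds palmitate, had spot medians of 612 and 592 in EGFP-only, 489 in double-positive and 412 in tdTomato-only cells, with ratios of 0.20 and −0.11. Acaca, the carboxylase that supplies malonyl-CoA, differed least, at 0.04 and −0.02. Acly, which makes cytosolic acetyl-CoA from citrate, had ratios of 0.07 and −0.21. Both of its channels were dimmer on the second array, at 416 and 267 in EGFP-only cells, 323 in double-positive and 196 in tdTomato-only cells. Srebf1, the gene of SREBP-1, had spot medians of 273 and 280 in EGFP-only, 237 in double-positive and 200 in tdTomato-only cells, with ratios of 0.16 and −0.24. In double-positive cells the values of Fasn, Acaca, Acly and Srebf1 were below 0 with median centring, while in tdTomato-only cells all 4 were below 0 in each of the 4 ways of processing. That agreement adds little, since the deposited ratios and median centring lower the values of these genes.

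Among cholesterol synthesis members Idi1 stood apart. This gene encodes the isomerase that makes dimethylallyl diphosphate, the starter unit of isoprenoid chains. Its spot medians were 651 and 643 in EGFP-only, 258 in double-positive and 420 in tdTomato-only cells. It was 1.90-fold lower in double-positive cells (−0.93), a value that only 0.58% of genes matched or undercut, and 1.15-fold lower in tdTomato-only cells (−0.20). The double-positive ratio was −1.21 in the deposited values and −1.38 with median centring. Mvd, which acts directly before it, had ratios of −0.21 and −0.06. Of the further list, and picked after their values were seen, Mvk, the kinase of mevalonate, had 0.05 and 0.23 (−0.25 and −0.06 with median centring). Ggps1, which makes a longer isoprenoid, had 0.01 and 0.19 (−0.30 and −0.11 with median centring). All 3 were closer to the EGFP-only level than Idi1 in double-positive cells, but so were most genes on the array. That contrast therefore says little about the pathway.

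From squalene onwards the members were near or above the EGFP-only level after loess. Fdft1, which makes squalene, had spot medians of 619 and 602 in EGFP-only, 454 in double-positive and 516 in tdTomato-only cells, with ratios of 0.06 and 0.22. Sqle, the epoxidase that acts on squalene, had 0.06 and −0.04. Lss, which closes the sterol rings, had 561 and 576 in EGFP-only, 420 in double-positive and 558 in tdTomato-only cells, with ratios of 0.08 and 0.41. The demethylase gene Cyp51 had 288 and 290 in EGFP-only, 248 in double-positive and 316 in tdTomato-only cells, with ratios of 0.16 and 0.48. Dhcr7, a reductase of the final steps, was at 0.11 and 0.21. With median centring these 5 genes lay below 0, apart from Cyp51 in tdTomato-only cells (0.09).

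Of the regulators, Insig1, the sterol-sensing anchor that retains SREBPs in the endoplasmic reticulum, had spot medians of 149 and 147 in EGFP-only, 173 in double-positive and 177 in tdTomato-only cells. Its ratios of 0.49 and 0.46 were above 0 in all 4 ways of processing. Srebf2, the gene of SREBP-2, had 228 and 213 in EGFP-only, 234 in double-positive and 198 in tdTomato-only cells, with ratios of 0.40 and 0.14, the latter −0.19 with median centring. Over the 9 measured cholesterol synthesis members, 7 were above 0 in double-positive and 6 in tdTomato-only cells (48.9% and 48.2% of all genes). These counts were 4 and 6 with deposited values, and 2 and 2 after median centring. Their medians were 0.08 and 0.21. The first was −0.04 with deposited values and −0.40 after median centring, and the second turned to −0.19 with median centring.

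**Figure D2:**
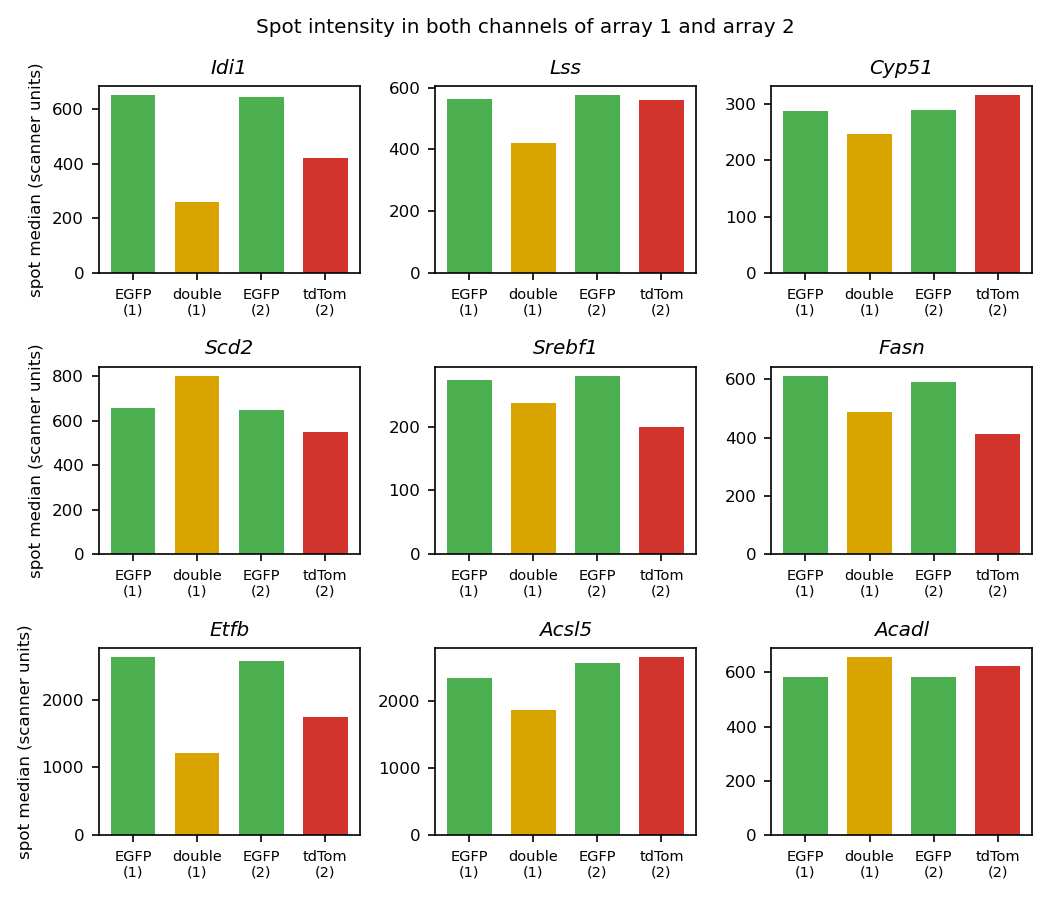
Spot median in scanner units (vertical axis, from 0) of 9 genes in the 4 channels, with (1) for the first and (2) for the second array; green bars are EGFP only (Cy5), yellow double positive and red tdTomato only (both Cy3). The EGFP-only bars of a gene are close on both arrays, whereas Idi1 is at 258 in double-positive and 420 in tdTomato-only cells and Scd2 at 803 and 551.

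The comparison of both tdTomato-labelled fractions with each other was made by subtracting one array's log2 ratio from the other's, which removes the shared EGFP-only level and any dye effect common to both. It shares its measurements with the first 2 comparisons. No member was 2-fold apart, where 0.813% of 11311 genes were at least 2-fold higher in tdTomato-only cells and 0.274% at least 2-fold lower. At a fold of 1.5 Idi1 was higher (2.67% of all genes) and Scd2 lower (1.8% of all genes) in tdTomato-only cells.

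All 6 fatty acid synthesis members were lower in tdTomato-only than in double-positive cells, where 54.3% of all genes were. They were so in each of the 4 ways of processing, with a median of −0.30 that ranged to −0.53 in the deposited ratios. Scd2 was 1.58-fold lower (−0.66), Srebf1 1.32-fold (−0.40), Fasn 1.24-fold (−0.31) and Acly 1.22-fold (−0.29). Scd1 had −0.17 and Acaca −0.05. The EGFP-only measurements of Scd2, Srebf1 and Fasn differed by 0.03, 0.06 and −0.01 between arrays, but those of Acly by −0.61.

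Cholesterol synthesis members differed in both directions, with 6 of 9 higher in tdTomato-only cells (45.7% of all genes) and a median of 0.15. The 6 were higher and the other 3 lower in all 4 ways of processing. Idi1 was 1.66-fold higher (0.73), with an EGFP-only difference of −0.01 between arrays, and 1.76% of genes were at least as high. Lss and Cyp51 were 1.26-fold and 1.25-fold higher (0.33 each), Fdft1 had 0.16, Mvd 0.15 and Dhcr7 0.10. Srebf2 was lower (−0.26). Sqle had −0.09 and Insig1 −0.03, small sizes for which no replicate spread is known.

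Oxidation and ketogenesis members were close together in these fractions, with 14 of 21 higher in tdTomato-only cells (45.7% of all genes) and a median of 0.03. In the deposited ratios 9 were higher and 11 lower, with a median of −0.02, and 7 of 21 did not keep their sign over the 4 ways of processing. Etfb was the most different, 1.39-fold higher (0.48), and 0.41 to 0.51 over the 4 ways of processing. Acaa2 and Acsl5 were each 1.24-fold higher (0.31), but their EGFP-only measurements also differed, by 0.19 and 0.14. Acadvl had 0.24 with an EGFP-only difference of −0.47. Ehhadh (−0.18) and Acadl (−0.17) were the lowest.

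**Figure D3:**
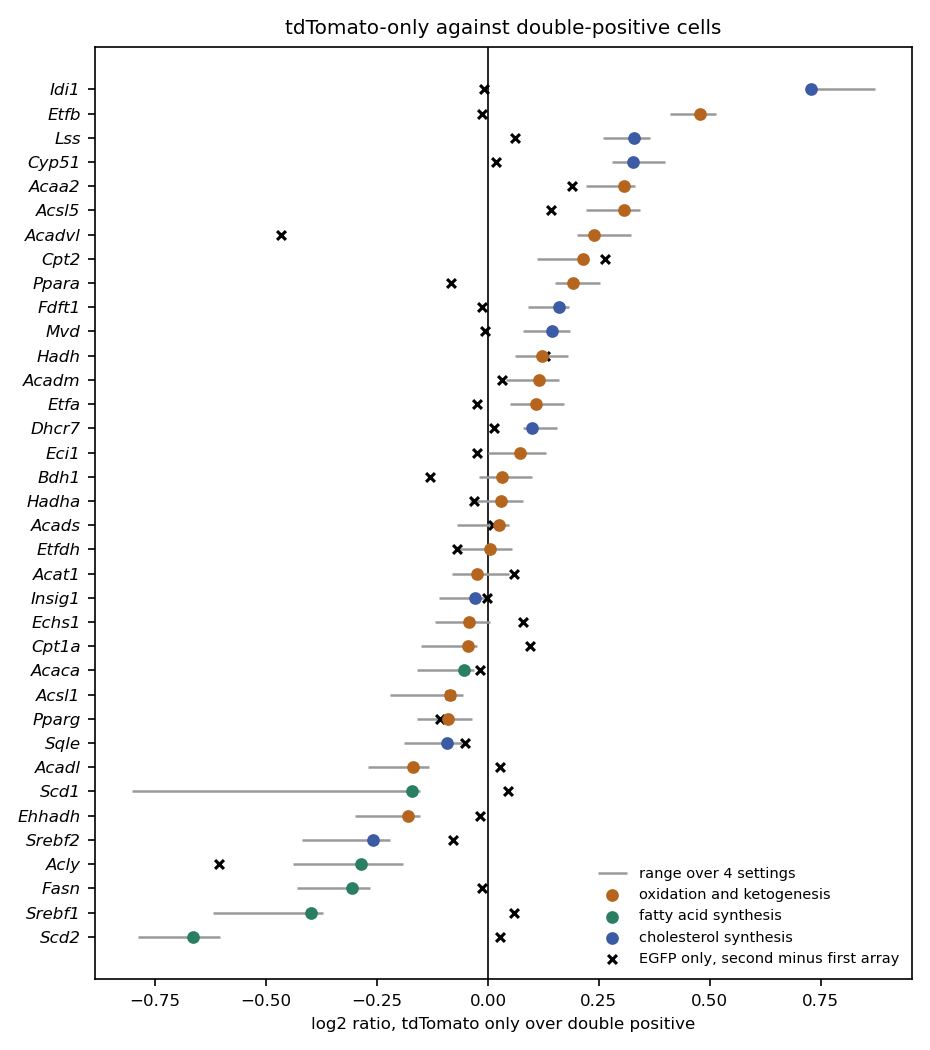
Log2 ratio of 36 members in tdTomato-only over double-positive cells (horizontal axis), sorted by value and coloured by group. Grey lines span 4 ways of processing and crosses give the difference of the EGFP-only channel between the arrays; the green fatty acid synthesis genes all lie left of 0, Idi1 (0.73) lies farthest right, and Acly and Acadvl have crosses far from 0.

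Promoter sequences are shown for the 3 cholesterol synthesis genes that were highest in tdTomato-only over double-positive cells, Idi1, Lss and Cyp51, and for Fasn, which was lower. Scd2 and Srebf1 were lower still than Fasn and are not among the 4 shown. They were taken from RefSeq on GRCm38.p6, as the 250 bases before the annotated start, and are at chr13:8885356-8885605 on the plus strand, chr10:76531355-76531604 on the plus strand, chr5:4104698-4104947 on the minus strand and chr11:120824548-120824797 on the minus strand. Capitals mark the letters CCAAT on either strand, the core that the factor NF-Y binds and that often accompanies SREBP sites.
Idi1: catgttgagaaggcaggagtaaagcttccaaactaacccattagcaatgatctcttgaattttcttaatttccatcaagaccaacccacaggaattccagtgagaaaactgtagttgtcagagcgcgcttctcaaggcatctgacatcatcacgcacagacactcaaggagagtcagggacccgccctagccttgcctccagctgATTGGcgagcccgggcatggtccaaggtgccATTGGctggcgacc
Lss: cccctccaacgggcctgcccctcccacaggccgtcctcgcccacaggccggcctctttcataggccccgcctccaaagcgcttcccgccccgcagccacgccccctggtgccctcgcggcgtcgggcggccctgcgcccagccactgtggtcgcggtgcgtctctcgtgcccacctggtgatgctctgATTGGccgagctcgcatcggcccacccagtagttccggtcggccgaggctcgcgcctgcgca
Cyp51: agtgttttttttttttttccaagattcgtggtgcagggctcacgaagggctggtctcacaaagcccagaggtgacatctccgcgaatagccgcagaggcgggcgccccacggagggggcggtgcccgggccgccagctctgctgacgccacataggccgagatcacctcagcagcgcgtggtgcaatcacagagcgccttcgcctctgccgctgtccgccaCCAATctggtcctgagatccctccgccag
Fasn: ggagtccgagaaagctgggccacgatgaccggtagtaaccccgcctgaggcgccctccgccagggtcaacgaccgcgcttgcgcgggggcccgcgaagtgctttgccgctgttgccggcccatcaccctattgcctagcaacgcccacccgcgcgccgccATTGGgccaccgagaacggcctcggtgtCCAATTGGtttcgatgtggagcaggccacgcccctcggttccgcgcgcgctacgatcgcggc

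CCAAT occurred on either strand in the window of 8 of 8 listed cholesterol synthesis genes with a promoter in that table, against 37.5% of 27025 genes in all. It occurred in 2 of 4 fatty acid synthesis genes and 11 of 22 oxidation and ketogenesis genes. In the further oxidation, fatty acid and cholesterol lists described below it occurred in 12 of 26, 10 of 21 and 13 of 19 genes. A gene counted when any of its annotated starts had a match. The GC box GGGCGG, a site for Sp1, was found in the same 8 of 8 cholesterol genes, in 2 of 4 and in 15 of 22, against 35.4% of all genes. The sterol response element TCACNCCAC was found in Hmgcs1, Acsl1 and Ehhadh among listed genes and in 1.22% of all genes. In the further lists it was found in 1 of 26, 1 of 21 and 0 of 19 genes. A pair of PPAR core motifs (AGGTCA, both in the same direction and 1 base apart) was found in no listed gene and in 0.0407% of all genes. These are letter matches in one window, on either strand.

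Other genes of the same pathways were followed in lists of 35, 25 and 26 genes. In tdTomato-only cells Fads1, Fads2 and Elovl5 had the lowest values of the further fatty acid and triglyceride list. Fads1, the delta-5 desaturase, had spot medians of 1121 and 1102 in EGFP-only, 627 in double-positive and 390 in tdTomato-only cells. It was 1.19-fold lower in double-positive cells, 2.11-fold lower in tdTomato-only cells, and 1.76-fold lower in the latter than in the former (−0.82). The elongase gene Elovl5 had 1309 and 1409 in EGFP-only, 824 in double-positive and 580 in tdTomato-only cells, and was 1.68-fold lower in tdTomato-only than in double-positive cells (−0.75). Fads2, the delta-6 desaturase, was about equally low in both fractions, at 1.93-fold and 2.03-fold below EGFP-only cells. The elongase genes Elovl1 and Elovl6, picked after their values were seen, had 0.19 and 0.08 in tdTomato-only cells, but −0.25 and −0.27 with median centring. The desaturases Fads1 and Fads2 differed in where they were low, with Fads2 at −0.07 between the fractions.

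Several triglyceride genes were higher in the sorted fractions. Mogat2, which re-esterifies absorbed monoglyceride in enterocytes, had spot medians of 447 and 438 in EGFP-only, 989 in double-positive and 1425 in tdTomato-only cells, and was 3.35-fold and 4.73-fold higher. Mttp, which loads fat onto lipoproteins, was 1.66-fold and 2.22-fold higher, and the lipase gene Mgll 2.56-fold and 2.45-fold (log2 1.36 and 1.29, but 2.63 and 2.62 in the deposited ratios). Agpat2, an acyltransferase of triglyceride synthesis, had 0.32 in double-positive cells (−0.16 with median centring). It was 2.12-fold higher in tdTomato-only cells, 1.70-fold above double-positive cells (0.77). The final acyltransferases Dgat2 and Dgat1 were 1.60-fold and 1.58-fold higher in tdTomato-only than in double-positive cells, Dgat2 with an EGFP-only difference of 0.22 between arrays. Against EGFP-only cells, Dgat2 and Dgat1 were lower in double-positive cells, at −0.15 and −0.24. In tdTomato-only cells they had 0.53 and 0.42, the latter −0.09 with median centring. Lpin2 was 1.76-fold and 1.74-fold higher than in EGFP-only cells. Thus Mgll and Lpin2 were about equal in both fractions, unlike Mogat2, Mttp and Agpat2. In this list, of 25 and 24 measured genes 2 were at least 2-fold higher in double-positive and 4 in tdTomato-only cells, with 0 and 2 at least 2-fold lower. Over all genes 5.1% and 6.15% were so high and 0.34% and 1.19% so low. The deposited ratios gave 4 and 3 higher and 1 and 3 lower, and median centring 2 and 2 higher and 1 and 3 lower. Over all genes, 10.6% were so high in each fraction in the deposited ratios, and 3.57% so low in double-positive cells. With median centring 6.29% and 7.47% of all genes were so low. Shares for the remaining counts are not given. Its medians were 0.01 and 0.08, turned to −0.41 and −0.20 by median centring.

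In the further oxidation list, 29 genes were measured, of which 1 was at least 2-fold higher in double-positive and 2 in tdTomato-only cells, and none at least 2-fold lower, beside 5.1% and 6.15% higher over all genes. In the deposited ratios 4 and 6 were at least 2-fold higher (10.6% of all genes in each), and with the blank mean subtracted 3 and 4 (9.96% and 10.8% of all genes). Median centring gave 2 and 4 lower, beside 6.29% and 7.47% of all genes. It gave 1 and 1 higher, for which the share over all genes is not given. Acaa1b, a peroxisomal thiolase gene, had spot medians of 104 and 102 in EGFP-only, 280 in double-positive and 326 in tdTomato-only cells, and was 3.64-fold and 4.23-fold higher (log2 1.87 and 2.08, but 3.00 and 3.20 in the deposited ratios). Its near-identical relative Acaa1a, picked after its values were seen, had −0.19 and 0.10, and the 2 probes could share signal. The fatty acid transporter gene Slc27a4 was 1.78-fold and 2.09-fold higher, Crot 1.54-fold and 1.61-fold, and Cd36 1.33-fold and 1.71-fold (log2 0.41 and 0.77, but 1.57 and 2.46 in the deposited ratios). Pex11a, a gene of peroxisome division, had 0.56 and 0.59. Acad9, needed to assemble respiratory complex I, was 1.68-fold and 1.79-fold lower. Between the fractions, Slc27a2 was 1.60-fold lower (−0.67) in tdTomato-only cells, Acad10 had −0.35, and Slc25a20, the carnitine carrier, Ech1 and Cd36 had 0.44, 0.36 and 0.36. The list's medians of 0.14 and 0.27 turned to −0.26 and −0.14 with median centring.

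Npc1l1, Abcg5 and Msmo1 gave the 3 highest values of the further cholesterol list in both fractions. Npc1l1, the cholesterol importer of the brush border, had spot medians of 204 and 201 in EGFP-only, 353 in double-positive and 522 in tdTomato-only cells, and was 2.36-fold and 3.54-fold higher. Abcg5, a sterol exporter, was 1.76-fold and 2.76-fold higher and its partner Abcg8 1.26-fold and 1.51-fold. Soat2, which esterifies cholesterol, had 0.05 in double-positive cells (−0.26 with median centring) and 0.58 in tdTomato-only cells. Msmo1, a sterol methyl oxidase acting after Cyp51, was 1.98-fold and 2.22-fold higher. Insig2 had 0.67 and 0.55, and Hsd17b7 0.51 and 0.33. Of 20 and 19 measured genes in this list, 1 and 3 were at least 2-fold higher and none 2-fold lower, beside 5.1% and 6.15% higher over all genes. The deposited ratios gave 2 and 5 higher, beside 10.6% of all genes in each fraction. Median centring gave 0 and 1 higher, for which the share over all genes is not given. Other sterol transport genes, picked after their values were seen, were nearer 0: Abca1 had −0.02 and 0.06, Stard4 −0.12 and 0.21, and Abcg1 0.18 and 0.18, with the first 2 genes below 0 in both fractions under median centring. The medians were 0.16 and 0.23, and −0.20 and −0.05 with median centring.

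Between the fractions, Abcg5 was 1.57-fold higher in tdTomato-only cells, with an EGFP-only difference of 0.22 between arrays. Npc1l1 had 0.59 and Soat2 0.53. The sterol reductase and lamin receptor gene Lbr was 1.41-fold lower (−0.50). Mbtps1, the protease that first cleaves SREBPs, had spot medians of 698 and 672 in EGFP-only, 590 in double-positive and 465 in tdTomato-only cells, and was 1.33-fold lower (−0.41). Scap, which escorts SREBPs to that protease and was picked after its values were seen, was 1.30-fold lower (−0.38). The 3 lists held 29, 24 and 19 genes measured in this comparison. Their medians were 0.10, 0.05 and 0.17, and none of the genes was 2-fold apart.

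**Figure D4:**
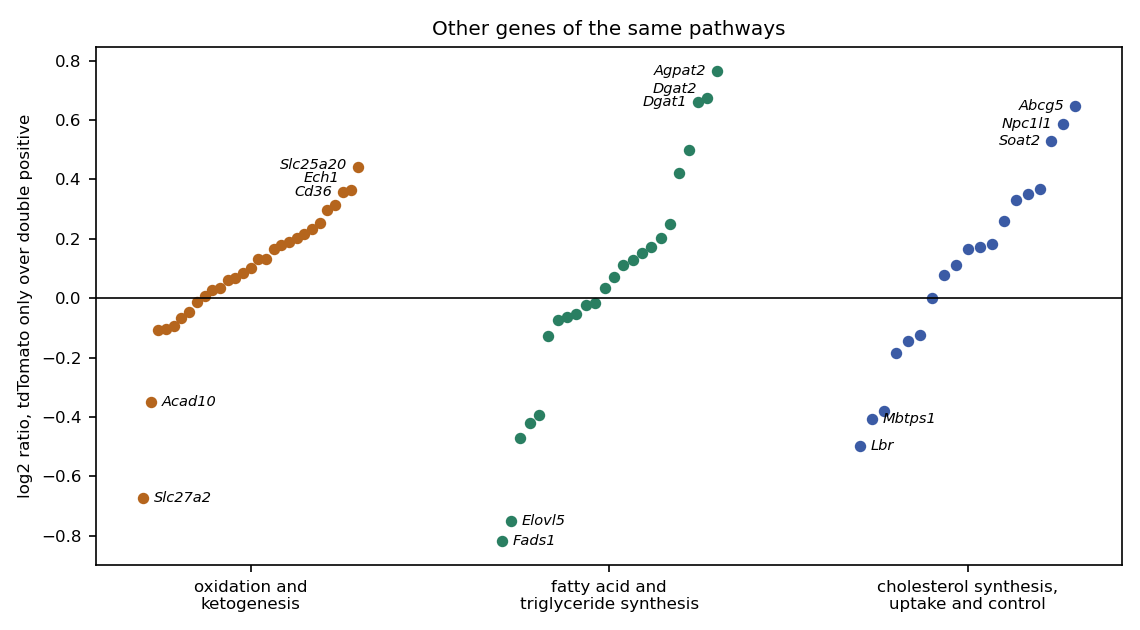
Log2 ratio in tdTomato-only over double-positive cells (vertical axis) of the other genes of the same pathways, 1 point a gene, sorted within each of 3 lists, with the 5 most different genes of each list named. Fads1 (−0.82) and Elovl5 (−0.75) are lowest and Agpat2 (0.77) is highest.

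Markers of cell types moved between the populations at the same time. Of 12 measured enterocyte markers of 14 listed, all were above 0 in each of the 3 comparisons, with medians of 1.67 and 2.20 over EGFP-only cells and 0.41 between the fractions. Among them Krt20 is the mean of 2 probes, at 1.67 and −0.36 between the fractions. Mttp is in that list too. Their spot medians, less the blank mean, summed to 13440 and 14064 in the EGFP-only channels, 30147 in double-positive and 61486 in tdTomato-only cells. All such sums are of spots before normalization, so the dimmer Cy3 of bright spots is part of them. Goblet cell markers (7 of 8 measured) had medians of 2.18, 3.30 and, over 6 genes, 0.92, and sums of 49121 and 42438, 131520 and 279218. Of these, Clca1 is the mean of 3 probes that the array lists under 2 symbols, Clca3 and Clca1, and that disagree. They may belong to different genes, and the goblet medians use their mean. The probe named Clca3 on the array had 5.80 in tdTomato-only cells and 3.63 between the fractions. Those named Clca1 had −0.84 and −1.28, and −0.34 and −0.94 between the fractions. Tff3, Zg16 and Spink4 were saturated in tdTomato-only cells and Spink4 in double-positive cells, so that the median of 3.30, which is the value of Tff3, and both Cy3 sums are lower limits. Paneth cell markers (7 of 9) had medians of 4.19, 4.03 and, over 4 genes, −0.41, with sums of 43346 and 49523, 342276 and 327898. The first 2 medians are the values of Ang4, which was saturated in both Cy3 channels, as were Defa5 and Itln1, so these medians and the Cy3 sums are lower limits too. Mmp7 was saturated in double-positive cells alone, so its −0.30 between the fractions and the median of −0.41 could be lower. Stem cell markers (8 of 8) had −0.08 in double-positive cells, and 7 of them had −1.004 in tdTomato-only cells and −0.81 between the fractions, with sums of 32034 and 31848, 8432 and 4873. Olfm4 alone had spots of 23003 and 23475 in EGFP-only, 3786 in double-positive and 2520 in tdTomato-only cells. In double-positive cells Lgr5, Rnf43 and Tnfrsf19 were above 0 after loess (0.26, 0.29 and 0.07) and the other 5 below. With median centring all 8 were below 0 there.

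Enteroendocrine markers (8 of 8) had medians of −1.11, −0.45 and 0.80 and sums of 6711 and 6828, 1793 and 3744. Lymphocyte markers (7 of 8, with Cd3e not above background in any channel) had 2.77, 1.61 and −1.24 and sums of 1555 and 1489, 12385 and 5376. Myeloid markers had 1.1996 over 5 genes, then 0.65 and −0.49 over 4, and sums of 216 and 208, 1314 and 999. Fibroblast, muscle and endothelial markers, of which 4 of 7 were measured, had 0.09, −0.14 and −0.17 and sums of 179 and 162, 172 and 136. Of 5 adipocyte markers, Adipoq, Lep and Fabp4 were not above background in any channel, and the other 2 had medians of 0.39, 0.42 and 0.03, with sums of 68.8 and 66.2, 94.7 and 103. The part of these cell types in the values of the lipid genes was not tested.

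**Figure D5:**
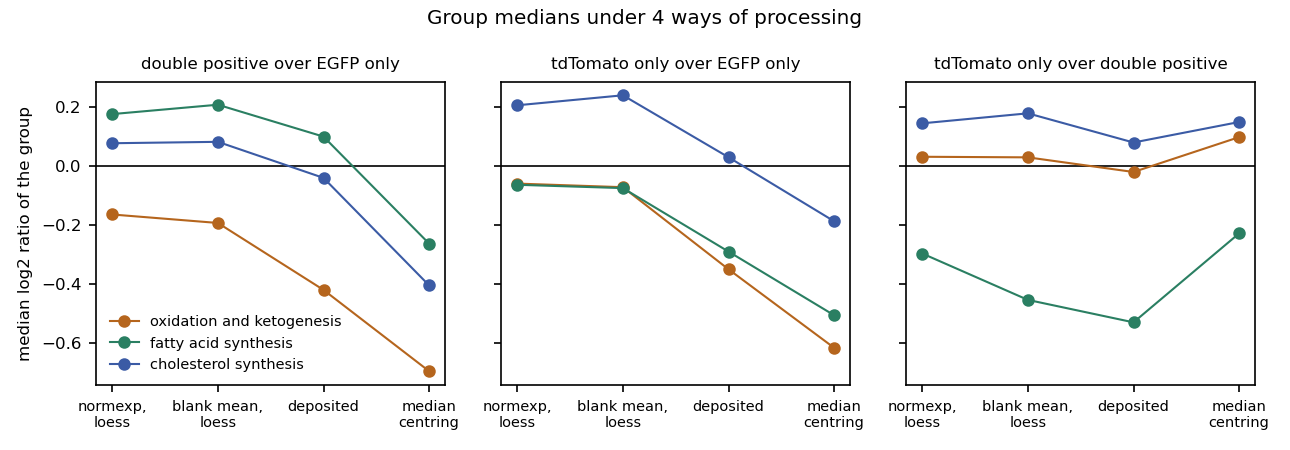
Median log2 ratio (vertical axis) of the measured members of each group in the 3 comparisons under 4 ways of processing. Values over EGFP-only cells are lower under the authors' values and lowest under median centring, down to −0.70 for oxidation and ketogenesis, while between the fractions fatty acid synthesis stays between −0.53 and −0.23.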

How the data were processed

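RNA of the sorted cells was amplified, dye-labelled and run on Toray arrays, per the labels' protocols. The authors deposited the median intensity of each spot, used here as it stands in the files, and normalized log2 ratios with EGFP only as the denominator, per the labels. The steps behind those ratios are not given in the sources used. Each deposited column has a median near 0 over the genes measured (−0.03 and −0.08).

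Intensities were corrected with normexp (offset 50) and normalized by loess within each array, with control and quality-marked spots (2 and 3 probes) at weight 0 (limma 3.58.1, R 4.3.3). Of 23474 probes, 16632 had 1 gene in the platform's annotation, none several and 6842 none; 3947 symbols were updated through GRCm38.p6 synonyms. Genes were averaged over probes above background in every channel compared. Members and lists were chosen with earlier results of these data known. The text accounts for all members and names up to 5 genes per further list and comparison by size, and a gene so named may be given in other comparisons. Steps were tested on simulated arrays, with a check that allowed folds to come back smaller than they were set. Alternatives were the deposited ratios, median centring, blank mean subtraction (trimmed by 5%), no background filter and a fold of 1.5. The number of arrays limits the precision.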

Additional observations from a re-analysis of the deposited data

How the results depend on the processing

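No paired analysis was possible because each population is 1 replicate, so no replicate was left out either. In double-positive over EGFP-only cells, the median of oxidation and ketogenesis members moved from −0.16 to −0.42 with deposited values and to −0.70 after median centring, that of fatty acid synthesis members from 0.18 to −0.26 with median centring, and that of cholesterol synthesis members from 0.08 to −0.04 and −0.40. In tdTomato-only over EGFP-only cells the deposited ratios and median centring gave −0.35 and −0.62 for oxidation, −0.29 and −0.51 for fatty acid synthesis, and 0.03 and −0.19 for cholesterol synthesis. Between the fractions, fatty acid synthesis moved from −0.30 to −0.53 with deposited values and −0.45 after subtraction of the blank mean. The other alternatives moved these medians by less than the SD of the EGFP-only channel (0.083).

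Counts of members at least 2-fold different were 0 after loess. In double-positive cells 1 was higher and 1 lower in the deposited ratios, and likewise after subtracting the blank mean (Scd1 and Idi1), and 0 and 6 with median centring (Idi1, Hadh, Acat1, Etfa, Bdh1 and Etfb); at a fold of 1.5 there were 2 and 1. In tdTomato-only cells 1 was higher with deposited values, after subtraction of the blank mean (Scd1 in both) and at a fold of 1.5 (Acsl5), and 3 were lower with median centring (Acat1, Hadh and Bdh1). Between the fractions 1 was higher and 1 lower at a fold of 1.5. The cause was not tested. Dim spots such as those of Scd1, Ppard and Pparg are the least certain.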

Other observations

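Some lipid genes were measured differently on the arrays although the EGFP-only population was in Cy5 on both. Acly had an EGFP-only spot of 416 on array 1 and 267 on array 2, and Acadvl 1886 and 1320. Elovl6, an elongase gene outside the members that was picked after its values were seen, had 385 and 247. The Cy3 spots of Acly (323 and 196) and Elovl6 (291 and 218) were dimmer on array 2 as well. Of 15640 probes, 32 (0.20%) were at least 1.5-fold apart between the EGFP-only channels after normalization, and Acly was the 1 member probe among them.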
